A study of Mus musculus with 24 samples.

Results

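The 9 genes described here, Fabp7, Neurog2, Sox11, Sox4, Sox2, Ccnd1, Sfrp2, Enc1 and Pax6, are genes of neural progenitors and young neurons, and they were followed in the retina of mouse pups between postnatal days 7 and 12. They were chosen by their signal on these same arrays, whose results were known when the list was made, and are 9 of the 12393 genes that a probe set with a single gene symbol stands for. Every probe set carrying one of the 9 symbols was taken, which gave 22 probe sets, of which 19 passed the filter on dim signals and entered the tests. The change with age is taken to be the measure that chose them, so it is given below as a description with its standard error and without a test. The comparison of hyperoxia with room air was tested.

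Total RNA of retina from C57Bl/6 mice was measured on 24 one-colour oligonucleotide arrays in 8 groups of 3. In 4 groups the pups breathed room air and were taken at postnatal day 7, 8, 10 or 12. In the other 4 groups the pups were exposed to hyperoxia. They were taken at day 7 after 12 hours, day 8 after 24 hours, day 10 after 72 hours or day 12 after 120 hours. Age and length of exposure thus changed together. No genetic alteration is named for any group, and the strain and tissue were shared by all of them. The oxygen concentration, the number of animals behind an array and whether the 3 replicates of a group were separate animals do not appear in the labels, so the p-values measure the spread between arrays, which may in part be technical. All values are log2 intensities unless said otherwise, each group has n = 3 arrays, and the 3 values of a group are given in the order of replicates 1, 2 and 3.

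Retinal progenitors divide at the outer edge of the neuroblastic layer and leave the cell cycle to become neurons or Müller glia, in an order that begins with ganglion cells and ends with bipolar cells and Müller glia. In the mouse retina the last divisions fall in the first days after birth at the centre and somewhat later at the margin, and the cells born last then grow processes, form synapses and switch off the genes of immature neurons. Sox2, Pax6, Fabp7 and Sfrp2 are genes of progenitors or glia, Ccnd1 drives the progenitors' cell cycle, Neurog2 is switched on as cells commit to a neuronal fate, and Sox4, Sox11 and Enc1 are genes of young neurons. In whole retina, fewer cells of a type and less RNA per cell cannot be told apart.

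The sequence just before the annotated start of transcription is shown for the members that the RefSeq promoter table (GRCm38.p6) holds, because most members moved together with age and a reader may wish to compare their upstream DNA. The table had 8 windows for 7 members, Ccnd1 and Enc1 were not matched in it, and the window nearest the first listed start is printed for each of the 7. Each line gives the 150 bases before the start, in the direction of the gene, with the plus strand for Fabp7 (chr10:57784773-57784922), Neurog2 (chr3:127632986-127633135), Sox2 (chr3:34649845-34649994), Sfrp2 (chr3:83766171-83766320) and Pax6 (chr2:105668746-105668895) and the minus strand for Sox11 (chr12:27342719-27342868) and Sox4 (chr13:28953700-28953849). Capitals mark matches, on either strand, to the motifs listed after the sequences.
Fabp7: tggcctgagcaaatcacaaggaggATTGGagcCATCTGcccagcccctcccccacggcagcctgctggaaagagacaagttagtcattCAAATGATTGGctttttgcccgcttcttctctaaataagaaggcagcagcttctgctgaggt
Neurog2: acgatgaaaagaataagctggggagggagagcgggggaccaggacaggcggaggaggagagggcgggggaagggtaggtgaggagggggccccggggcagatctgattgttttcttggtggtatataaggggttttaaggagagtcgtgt
Sox11: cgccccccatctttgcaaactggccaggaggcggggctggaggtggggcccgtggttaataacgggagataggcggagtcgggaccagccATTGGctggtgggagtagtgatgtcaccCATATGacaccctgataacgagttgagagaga
Sox4: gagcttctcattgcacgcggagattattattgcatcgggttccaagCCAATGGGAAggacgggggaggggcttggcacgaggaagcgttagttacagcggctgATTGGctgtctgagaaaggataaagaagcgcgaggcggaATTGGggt
Sox2: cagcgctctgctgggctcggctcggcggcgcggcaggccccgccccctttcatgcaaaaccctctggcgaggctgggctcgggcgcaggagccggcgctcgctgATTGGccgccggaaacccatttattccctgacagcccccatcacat
Sfrp2: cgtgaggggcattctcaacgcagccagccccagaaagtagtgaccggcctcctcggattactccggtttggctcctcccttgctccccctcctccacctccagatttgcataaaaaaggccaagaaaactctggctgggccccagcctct
Pax6: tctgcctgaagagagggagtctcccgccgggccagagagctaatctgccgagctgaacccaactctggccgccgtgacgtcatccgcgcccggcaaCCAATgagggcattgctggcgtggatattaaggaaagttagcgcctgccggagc

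Motifs were searched over the 250 bases before the start in all 32851 windows of the table, on both strands. The CCAAT box was in 5 of the 8 member windows (Fabp7, Sox11, Sox4, Sox2 and Pax6) and in 33.8% of all windows. Sox4 alone had 4 matches to it, and the one that begins 104 bases before the start shares a base with a match to TGGGAA, a core of the site bound by the Notch partner Rbpj. In Fabp7 a match to CANATG, an E-box form bound by proneural factors, directly adjoins a CCAAT box read on the other strand. CANATG was in 3 member windows (Fabp7, Sox11 and a further window of Pax6) and in 35.0% of all, and CAGCTG, another E-box, in 2 (Sox11 and Sox4) and in 13.0% of all. ACAAAG, a core of Sox binding sites, was in 2 member windows and 16.5% of all, TGGGAA in 2 and 21.6%, the hypoxia response core ACGTG in 1 and 16.6%, and the TATA box TATAAA in 0 and 12.4%. The E2F-like TTTCGCG was in 0 member windows and in 0.703% of all. Median GC content was 58.0% in the member windows against 52.4% in all, with a median of 15 CpG pairs against 6. A match is a description of these letters and shows no binding.

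Between day 7 and day 12, the mean of the brightest probe set of each of the 9 genes was lower at the later day in both conditions. For Pax6 the difference was near 0, at -0.01 ± 0.17 (SE) in room air and -0.02 ± 0.17 in hyperoxia. Its arrays of the 2 days overlapped, as did those of Sox2 in hyperoxia (-0.23 ± 0.17). In room air 19 of the 22 were lower at day 12, 12 of them by 1 or more on the log2 scale, and the median difference over the 22 was -1.21, with a range from -1.95 to 0.27. Over all tested probe sets the median was -0.03, the central range from the 10th to the 90th percentile was -0.42 to 0.45, and 0.852% were lower by 1 or more. In hyperoxia 17 of the 22 were lower, 13 of them by 1 or more, with a median of -1.15 and a range from -2.11 to 0.14, and 1.23% of all tested probe sets were lower by 1 or more. The members were chosen with these changes known, and nothing is read from these shares. In room air the median step over the members was -0.23 from day 7 to day 8, -0.72 from day 8 to day 10 and -0.32 from day 10 to day 12. In hyperoxia the same steps were -0.18, -0.44 and -0.44.

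**Figure D1:**
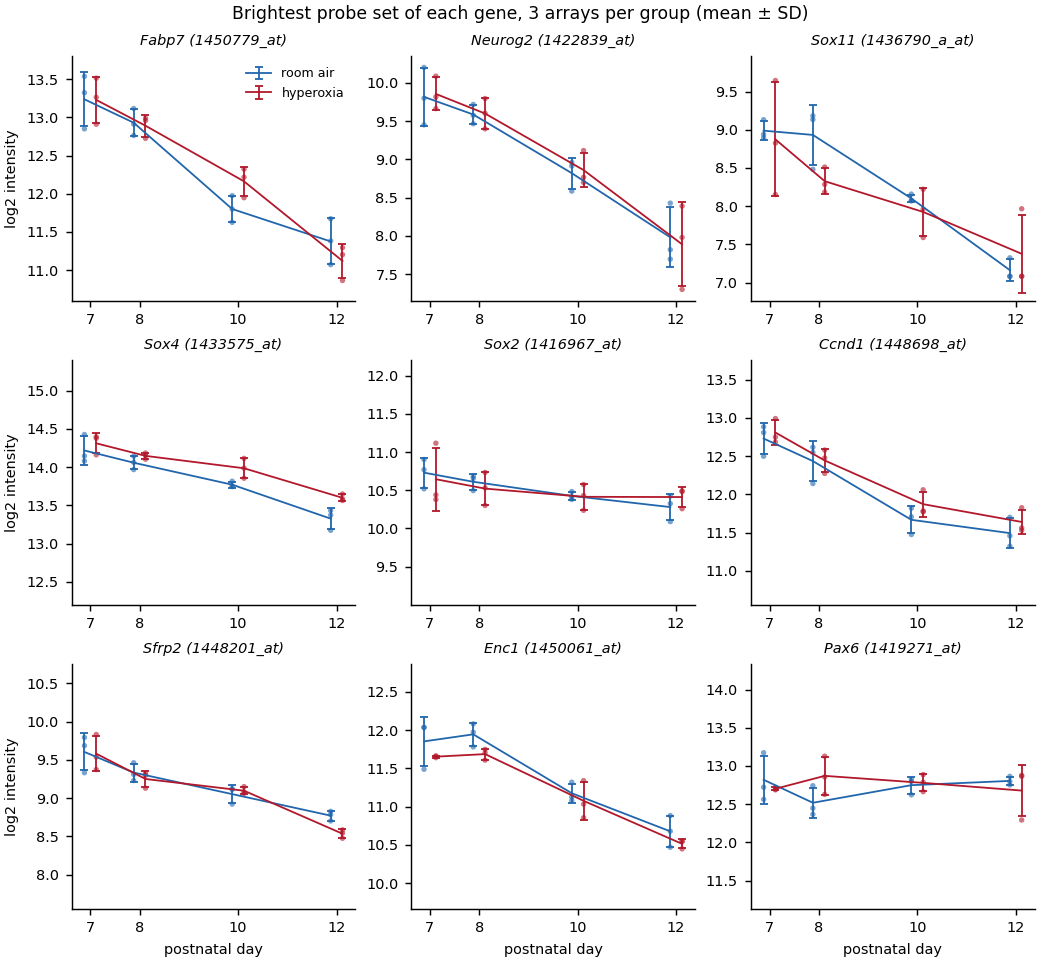
Log2 intensity (y axis) against postnatal day (x axis) for the brightest probe set of each of the 9 genes. Points are single arrays and bars the mean ± SD of 3 arrays, room air in blue and hyperoxia in red. Fabp7, Neurog2, Sox11, Ccnd1 and Enc1 run downhill in both conditions, Sox4 and Sfrp2 less steeply, and Sox2 and Pax6 are nearly level.

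Fabp7 encodes the brain lipid-binding protein, a fatty acid carrier of radial glia and progenitors that retinal glia also use. In room air its single probe set (1450779_at) read 13.54, 12.85 and 13.32 at day 7, 12.91, 12.76 and 13.11 at day 8, 11.63, 11.98 and 11.80 at day 10, and 11.67, 11.07 and 11.38 at day 12. In hyperoxia it read 13.51, 12.91 and 13.26 at day 7, 12.72, 12.96 and 12.99 at day 8, 11.95, 12.32 and 12.22 at day 10, and 11.29, 10.87 and 11.20 at day 12. The day 7 and day 8 arrays overlapped in both conditions, and every array of day 12 lay below every array of day 7 and day 8. The difference from day 7 to day 12 was -1.86 ± 0.19 (SE) in room air, which leaves 27.6% of the starting intensity, and -2.11 ± 0.19 in hyperoxia, which leaves 23.2%. On the deposited linear scale the 3 room air arrays went from 11989.2, 7180.4 and 9929.1 at day 7 to 3286.3, 2128.4 and 2650.8 at day 12.

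In the order of the 8 group means of Fabp7, the 2 groups of day 7 led, followed by those of day 8, and these 4 overlapped as neighbours. A gap of 0.73 without overlap then separated hyperoxia at day 8 from hyperoxia at day 10 (12.16 ± 0.19, SD). Below it came room air at day 10 (11.80 ± 0.17), room air at day 12 (11.38 ± 0.30) and hyperoxia at day 12 (11.12 ± 0.23), each overlapping the next. In room air the largest step, -1.13, lay between days 8 and 10, and in hyperoxia it was -1.04 between days 10 and 12. Hyperoxia differed from room air by 0.36 at day 10, with a 95% interval from -0.04 to 0.76 (limma, adjusted p = 0.491), and by -0.25 at day 12, from -0.66 to 0.15 (adjusted p = 0.752). Neither passed the test, and the average over the 4 days was 0.02, from -0.19 to 0.22.

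Sfrp2 encodes a secreted Frizzled-related protein that binds Wnt ligands outside the cell and is made by retinal progenitors. Its probe set (1448201_at) read 9.79, 9.33 and 9.69 in room air at day 7 and 8.83, 8.70 and 8.78 at day 12. Hyperoxia arrays gave 9.83, 9.54 and 9.37 at day 7 and 8.59, 8.48 and 8.54 at day 12. In both conditions all day 12 arrays were lower than all day 7 arrays, with means at day 8 (9.33 ± 0.12 and 9.25 ± 0.10, SD) and day 10 (9.05 ± 0.11 and 9.10 ± 0.05) in between. The difference was -0.83 ± 0.12 (SE) in room air and -1.05 ± 0.12 in hyperoxia, or 56.1% and 48.4% of the starting intensity. At day 12 the 3 hyperoxia arrays all lay below the 3 room air arrays, a difference of -0.24 with a 95% interval from -0.50 to 0.02 (limma, adjusted p = 0.611). With the deposited scaling, without quantile normalization, that Sfrp2 difference was -0.09, and the day 10 difference was 0.21.

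Sox2 is a SoxB1 transcription factor that keeps progenitors undifferentiated and stays on in Müller glia and some amacrine cells. Its probe set (1416967_at) read 10.90, 10.77 and 10.52 in room air at day 7 and 10.42, 10.09 and 10.33 at day 12, without overlap. In hyperoxia it read 11.12, 10.38 and 10.44 at day 7 and 10.48, 10.49 and 10.26 at day 12, where the ranges overlapped. The difference was -0.45 ± 0.17 (SE) in room air and -0.23 ± 0.17 in hyperoxia, leaving 73.2% and 85.1% of the starting intensity. Without replicate 1 of hyperoxia at day 7, the array at 11.12, the hyperoxia difference of Sox2 was 0.00. All neighbours in the order of the 8 groups overlapped. Hyperoxia differed from room air by 0.13 at day 12 (95% interval -0.22 to 0.48) and by -0.01 on average (-0.19 to 0.16), and neither passed the test.

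Pax6, the factor that sets up the eye field, is kept after development by amacrine, ganglion and horizontal cells, and its signal differed little between the ages. The brightest of its 5 probe sets (1419271_at) read 13.17, 12.56 and 12.72 in room air at day 7 and 12.86, 12.75 and 12.80 at day 12. The hyperoxia arrays read 12.70, 12.72 and 12.69 at day 7 and 12.86, 12.29 and 12.88 at day 12. The difference was -0.01 ± 0.17 (SE) in room air and -0.02 ± 0.17 in hyperoxia, with overlapping arrays. The other Pax6 probe sets differed by -0.09 (1452526_a_at), 0.27 (1425960_s_at), -0.13 (1456342_at) and 0.20 (1437816_at) in room air, and the last 2 were too dim to pass the filter.

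At day 8, Pax6 was higher in hyperoxia (13.13, 12.86 and 12.63) than in room air (12.37, 12.74 and 12.45), with overlapping ranges and a difference of 0.35 (95% interval 0.00 to 0.70). This had an unadjusted p of 0.0476 and an adjusted p of 0.964 (limma), so it was not called. Pax6 and Sox2 are also expressed in lens epithelium, and the mean log2 signal of 12 measured lens genes, mostly crystallins, ran from 8.68 to 13.1 over the room air arrays of day 8 but only from 7.47 to 8.74 over the hyperoxia arrays. With that lens score as a covariate the Pax6 difference was 0.33. The part of lens tissue in the Pax6 difference was not tested beyond these values.

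Ccnd1 encodes cyclin D1, the partner of Cdk4 and Cdk6 that carries retinal progenitors from G1 into S phase. Its brightest probe set (1448698_at) read 12.81, 12.50 and 12.88 in room air at day 7, 12.62, 12.14 and 12.55 at day 8, 11.82, 11.71 and 11.48 at day 10, and 11.70, 11.46 and 11.32 at day 12. In hyperoxia it read 12.75, 12.69 and 12.99, then 12.27, 12.58 and 12.48, then 11.77, 12.06 and 11.79, and at day 12 11.56, 11.83 and 11.53. All arrays of days 7 and 8 lay above all arrays of days 10 and 12, and within each of these pairs of days the neighbouring groups overlapped. The gap between hyperoxia at day 10 and the day 8 group above it was 0.56. From day 7 to day 12 the difference was -1.24 ± 0.15 (SE) in room air and -1.17 ± 0.15 in hyperoxia, 42.4% and 44.5% of the starting intensity.

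The other Ccnd1 probe sets gave -1.38 (1417420_at) and -1.58 (1417419_at) in room air and -1.23 and -1.71 in hyperoxia. At day 12, 1417420_at read 10.78, 10.59 and 10.82 in room air and 11.02, 11.03 and 10.97 in hyperoxia, a difference of 0.28 without overlap (95% interval -0.08 to 0.63, limma, adjusted p = 0.673). At the same age the difference was 0.15 (-0.17 to 0.47) for 1448698_at and of the opposite sign, -0.22 (-0.65 to 0.21), for 1417419_at, both with overlapping arrays. Averaged over the 4 days, the Ccnd1 probe set 1448698_at differed by 0.11 between the conditions (95% interval -0.05 to 0.27, adjusted p = 0.75), 1417420_at by 0.16 and 1417419_at by -0.07. None passed the test.

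Neurog2 encodes a proneural basic helix-loop-helix factor that is on briefly while a progenitor commits to a neuronal fate. Its probe set (1422839_at) read 10.20, 9.45 and 9.80 in room air at day 7, 9.58, 9.72 and 9.47 at day 8, 8.59, 8.91 and 8.96 at day 10, and 7.82, 7.70 and 8.43 at day 12. In the hyperoxia groups it was 10.09, 9.66 and 9.82, then 9.40, 9.60 and 9.80, then 9.12, 8.70 and 8.77, and at day 12 8.39, 7.30 and 7.98. The groups of days 7 and 8 overlapped, and those of day 10 and of day 12 each stood apart from the days before, by gaps of 0.73 and 0.84 between neighbouring group means. The difference from day 7 to day 12 was -1.84 ± 0.24 (SE) in room air and -1.97 ± 0.24 in hyperoxia, leaving 28.0% and 25.6%.

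Room air and hyperoxia gave nearly the same Neurog2 mean at every age. The differences were 0.04 at day 7, 0.01 at day 8, 0.04 at day 10 and -0.09 at day 12, where the 95% interval ran from -0.60 to 0.41. The average over the 4 days was 0.00, with an interval from -0.25 to 0.25. The data therefore leave room for a difference of about that size in either direction.

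Sox4 and Sox11 are SoxC transcription factors that switch on genes of newly born neurons, and Sox4 is measured by 6 probe sets, the most of any member. The brightest (1433575_at) read 14.43, 14.14 and 14.08 in room air at day 7, 13.97, 14.06 and 14.14 at day 8, 13.74, 13.81 and 13.75 at day 10, and 13.17, 13.37 and 13.43 at day 12. In hyperoxia it read 14.39, 14.16 and 14.38, then 14.10, 14.18 and 14.15, then 13.85, 14.11 and 13.99, and at day 12 13.65, 13.58 and 13.56. Signal was lower at each later age in both conditions, and at days 10 and 12 all hyperoxia arrays lay above all room air arrays of the same age. From day 7 to day 12 the difference was -0.89 ± 0.11 (SE) in room air and -0.71 ± 0.11 in hyperoxia, 53.9% and 61.0% of the starting intensity.

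Of all members, the brightest Sox4 probe set came nearest to a call for hyperoxia. It was higher by 0.21 at day 10 (95% interval -0.01 to 0.44, limma, adjusted p = 0.467) and by 0.27 at day 12 (0.05 to 0.49, adjusted p = 0.489). The average over the 4 days was 0.17 (0.06 to 0.28), with an unadjusted p of 0.00492 and an adjusted p of 0.285, so it was not called. The averages of the other 5 Sox4 probe sets were also above 0, between 0.07 and 0.16, and none was called. The 6 probe sets carry the same gene symbol and were read on the same arrays, so they are not independent.

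The Sox4 probe sets did not give the same size of change with age. In room air the differences were -1.74 (1449370_at), -1.65 (1419157_at), -1.53 (1419155_a_at) and -1.46 (1419156_at), against -0.89 for the brightest and -0.42 for the dimmest (1455867_at, mean log2 intensity 8.49). In hyperoxia they were -1.68, -1.49, -1.44, -2.08, -0.71 and -0.58 in the same order. At day 10, 1419156_at read 10.40, 10.46 and 10.22 in room air and 11.02, 11.11 and 10.78 in hyperoxia, higher without overlap by 0.61 (95% interval 0.08 to 1.13, limma, adjusted p = 0.401). At day 12 the same Sox4 probe set differed by -0.39, with 10.39, 9.69 and 9.45 in room air and 9.79, 9.03 and 9.56 in hyperoxia. The probe set 1419157_at was higher in hyperoxia at day 8 without overlap (12.96, 13.13 and 12.83 against 12.23, 12.77 and 12.76), by 0.39 with an interval from -0.05 to 0.82.

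**Figure D2:**
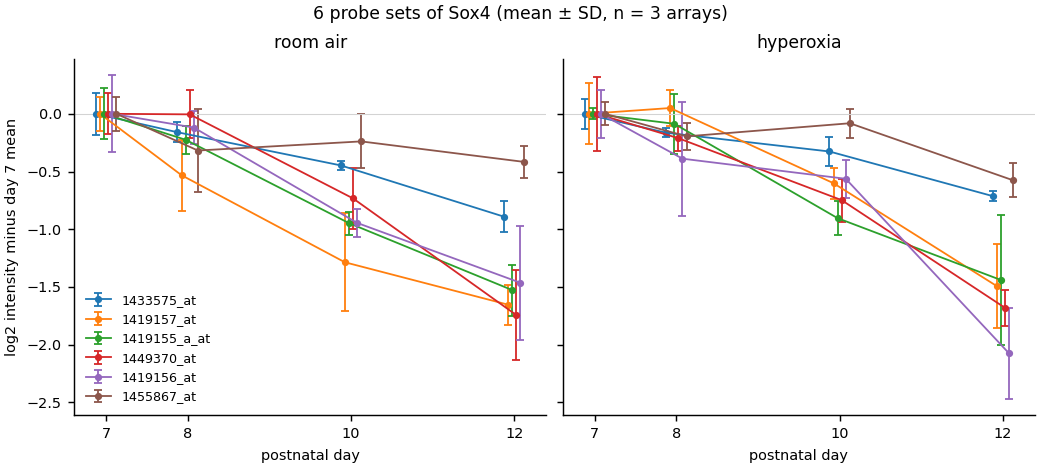
Log2 intensity of the 6 Sox4 probe sets relative to each one's mean at day 7 (y axis, mean ± SD of 3 arrays) against postnatal day (x axis), room air and hyperoxia in separate panels. At day 12 the curves spread from -0.42 to -1.74 in room air and from -0.58 to -2.08 in hyperoxia.

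Sox11 has 1 probe set (1436790_a_at), which went down to the floor of the scale. It read 9.13, 8.94 and 8.89 in room air at day 7, 9.13, 8.48 and 9.18 at day 8, 8.07, 8.08 and 8.16 at day 10, and 7.32, 7.08 and 7.08 at day 12. Under hyperoxia the readings were 9.64, 8.15 and 8.83, then 8.51, 8.29 and 8.18, then 7.96, 8.22 and 7.59, and at day 12 7.97, 7.08 and 7.08. Values of 7.08 are the floor to which dimmer signals were raised, and 4 day 12 arrays, 2 in each condition, sat on it, so the change is understated. The difference from day 7 to day 12 was -1.82 ± 0.29 (SE) in room air and -1.50 ± 0.29 in hyperoxia. Without replicate 1 of hyperoxia at day 7, at 9.64, the hyperoxia difference of Sox11 was -1.11.

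At day 8, the Sox11 mean was lower in hyperoxia, with overlapping ranges, a difference of -0.61, a 95% interval from -1.20 to -0.01 and an unadjusted p of 0.0477. The adjusted p was 0.964 (limma), and the difference was not called. At the other ages the differences were -0.11, -0.18 and 0.21, and the average was -0.17, from -0.47 to 0.13. With the deposited scaling the Sox11 difference at day 10 was 0.07, of the opposite sign.

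Enc1 encodes a kelch-repeat protein that binds actin and is expressed as neurons send out processes. The brighter of its usable probe sets (1450061_at) read 12.04, 11.49 and 12.04 in room air at day 7, 11.97, 11.78 and 12.08 at day 8, 11.13, 11.08 and 11.32 at day 10, and 10.88, 10.47 and 10.68 at day 12. In hyperoxia it read 11.66, 11.66 and 11.64, then 11.61, 11.75 and 11.70, then 10.86, 11.03 and 11.34, and at day 12 10.55, 10.45 and 10.55. The arrays of days 7 and 8 stayed level and those of days 10 and 12 lay lower. The difference from day 7 to day 12 was -1.18 ± 0.15 (SE) in room air and -1.14 ± 0.15 in hyperoxia, 44.2% and 45.4% of the starting intensity.

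The 2 Enc1 probe sets that passed the filter gave hyperoxia differences of opposite sign, neither called. With 1450061_at the average over the 4 days was -0.18 (95% interval -0.33 to -0.03, unadjusted p = 0.0236, limma adjusted p = 0.474), and the hyperoxia mean was lower at every age. With 1420965_a_at the average was 0.22 (-0.02 to 0.46, adjusted p = 0.605). At day 12 the latter read 10.26, 9.82 and 10.15 in room air and 10.81, 10.05 and 10.89 in hyperoxia, a difference of 0.51 (0.03 to 0.98, adjusted p = 0.548). Its change with age was -1.95 in room air, the largest of the 22, and -1.41 in hyperoxia. The difference between these, 0.54, had an interval from -0.14 to 1.22 and an adjusted p of 0.834 (limma). A further Enc1 probe set (1420964_at) was at the floor in 21 of 24 arrays.

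**Figure D3:**
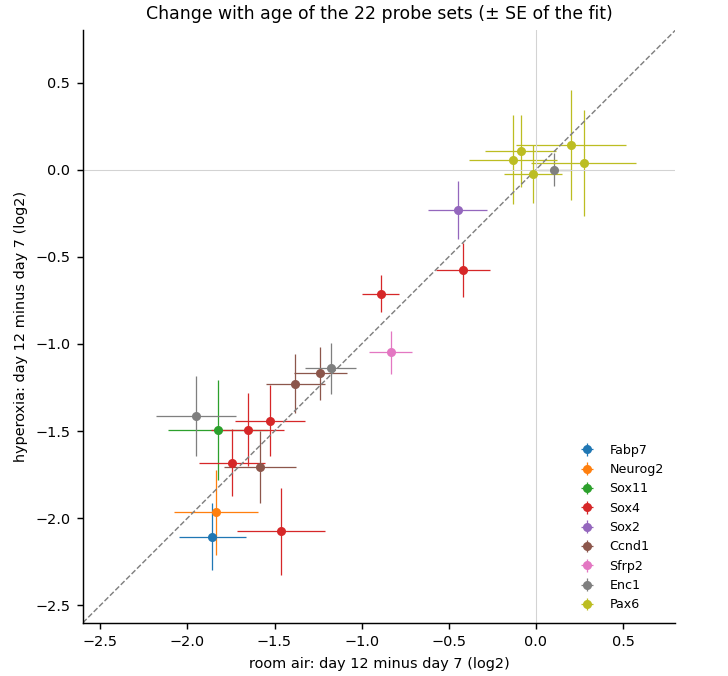
Day 12 minus day 7 in hyperoxia (y axis, log2) against the same in room air (x axis, log2) for the 22 probe sets, with ± SE, coloured by gene. The dashed line marks equal change, and the points run along it from about 0 (Pax6) to about -2.

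No member passed the test for hyperoxia at any age. Of the 19 tested member probe sets 0 were called at day 7, where 0.0631% of all 15838 tested probe sets were, 0 at day 8 (0.0821% of all), 0 at day 10 (0.0631%) and 0 at day 12 (0.0126%). For the average over the 4 days 0 members were called against 0.492% of all. For the change of the hyperoxia effect between days 7 and 12, and for the F test of that effect among the 4 days, 0 members and 0% of all were called. Calls are limma adjusted p-values (Benjamini-Hochberg) under 0.05. At an unadjusted p under 0.05 the counts of members were 0, 2, 2 and 2 at the 4 ages and 2 for the average. Over all probe sets that threshold was passed by 3.18%, 4.92%, 10.9%, 8.73% and 8.93%. A difference that was not called was not shown to be absent, and its interval gives the sizes the arrays leave possible.

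By direction, 8 of the 19 were higher in hyperoxia at day 7, 11 at day 8, 16 at day 10 and 8 at day 12. These are probe sets and not genes, 6 of them of Sox4. By the brightest probe set of each of the 9 genes, 3 were higher at day 7, 4 at day 8, 6 at day 10 and 4 at day 12, and at day 10 Sox11, Sox2 and Enc1 were the lower ones. Over the 19 probe sets the median differences were -0.02, 0.01, 0.20 and -0.08, beside medians over all tested probe sets of 0.01, 0.00, 0.00 and 0.00. At day 10, 21.5% of all tested probe sets had groups that did not overlap, in either direction, and 2 of the 19 members did, both of Sox4 and both higher. At day 7 the shares were 7.05% of all and 0 members, at day 8 9.96% and 2 (Sox4 and Enc1), and at day 12 11.7% and 3 (Sox4 and Ccnd1 higher, Sfrp2 lower). With the deposited scaling 10 of the 19 were higher at day 12 and the median there was 0.04, while at day 10 the count was 17. In that scaling the median over all tested probe sets was itself 0.03 at day 12 and 0.04 at day 10. Above that median lay 10 of the 19 at day 12 and 16 at day 10.

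**Figure D4:**
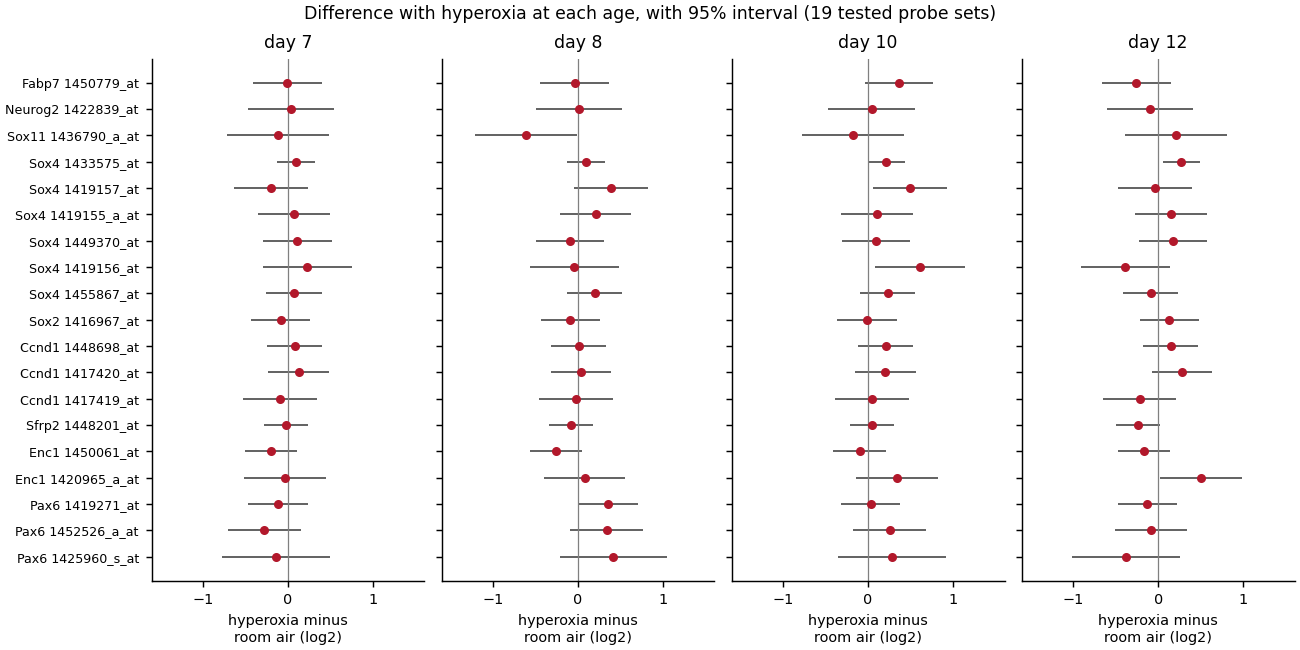
Hyperoxia minus room air (x axis, log2) for the 19 tested probe sets (y axis), a panel for each of days 7, 8, 10 and 12, with 95% intervals from the fit over all arrays. Most intervals cross 0, none is called after adjustment, and 16 of 19 points lie to the right of 0 at day 10.

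Over the 8 group means, most members followed the same course. The Pearson correlation of each gene's brightest probe set with the mean standardized profile of the other 8 genes was 0.985 for Fabp7, 0.985 for Neurog2, 0.963 for Sfrp2, 0.951 for Ccnd1, 0.933 for Sox11, 0.933 for Sox4, 0.927 for Enc1 and 0.898 for Sox2. Pax6 stood apart at -0.099. These points share their arrays and an order by age. The members were also chosen with their change with age known, so the values are a description and give no independent support. Among 552 genes whose group means spanned at least 1 on the log2 scale, the profiles most like the members' mean were those of Igf2bp3 (0.995), Otx2 (0.989), Ddah2 (0.989), Jpt1 (0.989) and Cdk4 (0.988). By single member the nearest were Jpt1 to Fabp7 (0.995), Cdk4 to Neurog2 (0.999), Dhx32 to Ccnd1 (0.995), Btg2 to Sox4 (0.994), Cmtm7 to Sfrp2 (0.985), Sat1 to Enc1 (0.984), Tead2 to Sox11 (0.979), Cd24a to Sox2 (0.974) and Egr3 to Pax6 (0.749).

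Other genes of the same pathways were read from lists, with the brightest probe set of each gene, and the change with age was tested for them. The lists were made with earlier results of these data known, so the counts are a description and give no independent support. Here and below, genes that fell or rose are those called lower or higher (limma adjusted p under 0.05). Genes that were not called went in both directions. Over all tested probe sets 5.2% were called lower and 7.14% higher at day 12 than at day 7 in room air, and 6.64% and 5.95% in hyperoxia. Of the 26 measured genes among 34 of retinal progenitors, 8 fell and 0 rose in room air, with a median of -0.28 against -0.02 over all genes. In hyperoxia 7 fell and 0 rose. The largest room air changes were in Foxn4 (-1.52 ± 0.25, SE), a factor for amacrine and horizontal fates, in Hes5 (-1.36 ± 0.20), a Notch target, and in Notch1 itself (-1.03 ± 0.20). Of 34 measured genes of young neurons 15 fell and 1 rose in room air (median -0.41), and 16 fell and 1 rose in hyperoxia. Tubb2b, a tubulin of growing neurons, fell in room air (-1.33 ± 0.23), and so did Insm1, a factor of newborn neurons (-1.24 ± 0.19). Gadd45a, named after its values were seen, was the gene that rose (0.82).

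Of 26 measured genes of cyclin D and the entry into S phase, 9 fell and 0 rose in each condition, with medians of -0.33 and -0.22. Cdk4, the kinase partner of cyclin D1, fell in both conditions (-1.35 ± 0.12, SE, in room air and -1.49 in hyperoxia), as did the replication helicase subunit Mcm7 (-1.10 ± 0.14 and -1.43). Mcm2 differed by -1.14 ± 0.37 in room air and missed the threshold there (limma adjusted p = 0.0503). Mcm5, named after its values were seen, was lower in hyperoxia than in room air at day 10 (-1.02, limma adjusted p = 0.0329). Neither the progenitor nor the young neuron list had a call for hyperoxia at any age or for the average.

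Some other genes of the members' families passed the test. Over all tested probe sets 5.2% were called lower and 7.14% higher in room air, and nothing is read from the counts in these short lists. Of 21 measured Wnt ligands, receptors and inhibitors, the setting of Sfrp2, 1 rose and 1 fell in room air: the secreted inhibitor Frzb rose (1.54) and the receptor Fzd2 fell (-0.92), with 1.39 and -0.70 in hyperoxia. Of 9 measured Sox genes other than the members, Sox12, the remaining SoxC factor, fell (-0.67 and -0.79) and the rest did not pass. Over the average of the 4 days Sox17 (-0.43, limma adjusted p = 0.0406) and Sox18 (-0.64, adjusted p = 0.0288), both factors of endothelium, were lower in hyperoxia. Of 2 measured Pax genes besides Pax6, Pax7 fell (-1.62 and -1.77). Of 4 measured fatty acid and retinoid carriers akin to Fabp7, Fabp3 rose in room air (0.80) and Crabp1 fell in hyperoxia (-0.61). Sox17 and Sox18 were named after their values were seen.

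In the lists of mature retinal neurons and Müller glia more genes were called higher than lower over the same days. This holds for called genes only: in the bipolar list, called or not, more genes were lower than higher in room air. Of 11 measured rod genes 7 rose and 0 fell in room air (Gnat1 by 2.59, Pde6a by 1.92, Cnga1 by 1.48) and 6 rose in hyperoxia. Of 12 Müller glia genes 7 rose and 2 fell in room air and 8 and 2 in hyperoxia, with Aqp4, the water channel, up by 2.62. Among 7 cone genes 4 rose and 1 fell, among 8 bipolar cell genes 3 and 2, among 9 amacrine genes 3 and 0, among 5 horizontal cell genes 2 and 0, and among 10 ganglion cell genes 5 and 0 in room air. In hyperoxia these counts were 3 and 1, 3 and 2, 2 and 0, 1 and 0, and 2 and 0. Otx2, one of the 2 bipolar genes that fell (-1.06), was also among the genes most like the members. Of 5 astrocyte genes 0 passed in room air, of 9 microglia genes 1 rose and of 14 endothelial genes 2 rose. The mean log2 signal of the rod list lay between 13.2 and 14.3 on all arrays, so the defining markers of the labelled tissue were present throughout.

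**Figure D5:**
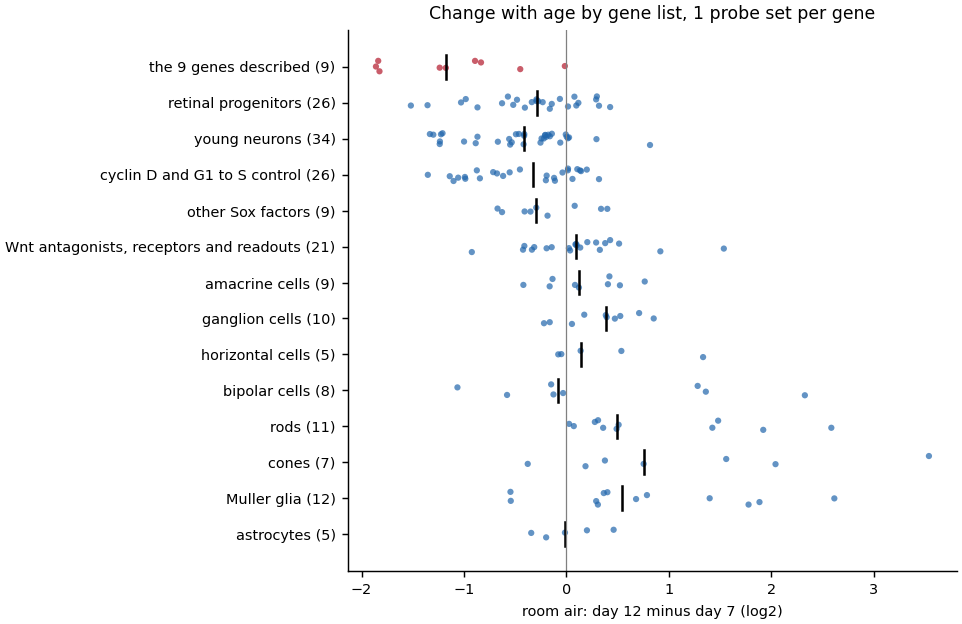
Day 12 minus day 7 in room air (log2) for each measured gene of the lists, 1 probe set per gene, with list medians as bars and the 9 genes described here in red. Progenitor, young neuron and cyclin lists have medians of -0.28, -0.41 and -0.33, and the rod, cone and Müller glia lists medians of 0.49, 0.75 and 0.54. The bipolar list has a slightly negative median.

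Signal of lens and pigment epithelium genes varied between arrays. The lens score ran from 7.23 to 14.0 over the room air arrays of day 12 alone, and 0 of 12 measured lens genes were called in any comparison. The mean log2 signal of 9 pigment epithelium genes ran from 9.36 to 10.95 in room air at day 7 and from 10.60 to 11.32 at day 12, and from 9.21 to 10.27 and from 10.46 to 11.68 in hyperoxia, so it was higher at the later age. With this score as a covariate the hyperoxia change from day 7 to day 12 was -1.73 for Fabp7, -1.61 for Neurog2, -1.001 for Sox11, -1.03 for Ccnd1, -0.96 for Enc1, -0.88 for Sfrp2 and 0.03 for Sox2. The room air changes were -1.65 for Fabp7, -1.64 for Neurog2, -1.55 for Sox11 and -0.31 for Sox2. The pigment score and age changed together, so these fits cannot separate tissue carried along with the retina from age itself. Room air replicate 2 of day 7 had the highest pigment score of its group (10.95). By brightest probe sets it was the lowest of its group for Fabp7, Neurog2, Sfrp2, Enc1, Pax6 and Ccnd1. It was not the lowest for Sox2, Sox11 or Sox4, though most other Sox4 probe sets were lowest there. Hyperoxia replicate 3 of day 12 had the highest pigment score of all arrays (11.68). That array was the lowest of its group for Ccnd1, Sox4 and Sox2, in the middle for Fabp7, Neurog2 and Sfrp2, and the highest for Enc1 and Pax6. The part of these tissues in the changes of single genes was not tested beyond these values. Of 14 measured endothelial genes 6 were called lower in hyperoxia for the average over the 4 days, where 0.492% of all tested probe sets were called. The list median was -0.39.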

How the data were processed

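The data were 24 one-colour arrays of mouse retina RNA, deposited as a table of linear intensity per probe set. The authors had scaled the arrays before deposit, since the 2% trimmed mean of the deposited intensity lay between 1500.35 and 1500.4 on every array. The software that made the values is not given in the sources used here. Array medians ran from 570.2 to 679.7. Intensities were converted to log2 and quantile normalized, and a floor was set at the table's 20th percentile (135.6, or 7.08 on the log2 scale). The 64 control probe sets and those with a mean below the 30th percentile of all means were not tested, which left 15838 of 22690. In the tested set 0.34% of values were at the floor. Gene names came from the platform annotation: 20380 probe sets had 1 symbol, 691 several and 1555 none, and only those with 1 symbol were named.

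A single limma fit (3.58.1, R 4.3.3) of 8 group means with 16 residual and 3.54 prior degrees of freedom gave all contrasts, with 95% intervals and Benjamini-Hochberg adjustment over all probe sets tested. The script was tested on simulated data. Intervals cover the spread among 3 arrays a group, and this number limits the precision. Motifs were counted with Python 3.11.15 and pandas 2.3.3, and figures drawn with matplotlib 3.10.9. The 9 genes and the gene lists were chosen with earlier results of these data known. All 9 genes and all their probe sets are named, of each list at most the 3 genes with the largest room air change, other genes by the likeness of their profile, and a few more that the text says were named after their values were seen. Alternatives were the deposited scaling, other filters and floors, another prior, the replicate number as a block, 1 probe set per gene, lens and pigment scores as covariates, each day alone and each array left out. No 2 arrays held identical values.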

Additional observations from a re-analysis of the deposited data

How the results depend on the processing

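In 154 alternative values of the 7 hyperoxia comparisons the number of members called stayed at 0, while the number of calls over all probe sets ran from 0 to 18 at day 7, 0 to 17 at day 8, 0 to 34 at day 10, 0 to 6 at day 12 and 37 to 99 for the average. The median change of the 22 member probe sets from day 7 to day 12 in room air was -1.21, and it was -1.19 with the deposited scaling, -1.12 with the pigment score as a covariate, -1.21 with the lens score and between -1.12 and -1.36 with each of the 12 arrays of days 7 and 12 left out in turn. With the replicate number as a block it was -1.21 and 0 members were called. Of 84 pairs of arrays from different groups with the same number, 34 had deviations that correlated above 0.1 (mean 0.0865). Among pairs with different numbers it was 42 of 168 (mean -0.0431). Deviations were thus on average somewhat more alike within a number, and whether the numbers mark a pairing or a batch was not tested. Of 1806 alternative single values for hyperoxia 11 moved by more than the spread between replicates and 135 changed sign, none of them called. Of 836 single values for age 19 moved and 24 changed sign. Leaving out the room air arrays of day 8 with the 2 highest lens scores was chosen after seeing the data, left a single room air array at that age, and gave 0 calls among the members. Signal near the floor limits Sox11 at day 12, 1 probe set of Enc1 and 2 of Pax6.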
